A study of Mus musculus with 15 samples.

Results

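Transcripts of blood vessel cells were followed through libraries of sorted mouse microglia after stroke. The genes described are 40 vascular genes of 24421 measured: 28 of endothelial cells, which line the vessels, 9 of mural cells, which wrap them, and 3 of collagens of the vessel wall and of scar tissue. Members were matched by gene symbol, and all 40 were listed in each of the 3 count tables. No measured value entered the choice, although earlier results of these libraries were known when the list was made.

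Brain endothelial cells are joined by tight and adherens junctions and carry transporters that make up the blood-brain barrier. They depend on receptors for vascular endothelial growth factor and for angiopoietins. Smooth muscle cells around arteries and arterioles carry a contractile apparatus, whereas pericytes on capillaries carry Pdgfrb and Rgs5 and little of that apparatus. Microglia, the resident macrophages of the brain, derive from another lineage and are not known to make most of these transcripts. After an ischemic stroke the vessels of the injured area leak, take up leukocytes and are later remodelled, and collagen is deposited at the scar.

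The cells were sorted from the forebrain of male mice of 8 to 24 weeks by intermediate surface staining for CD45 and CD11b, and the stain also held an antibody to CD31, the product of Pecam1. How the CD31 signal was used in the gate was not given in the sources used here. Wild-type C57BL/6J mice gave 1 library after sham surgery, which was done without occlusion, and 1 library each on days 1, 6, 14 and 28 after middle cerebral artery occlusion (MCAO) for 60 minutes. Igf1-Egfp transgenic mice, in which EGFP reports Igf1, gave 1 EGFP+ and 1 EGFP- library on day 6 and again on day 14 after MCAO. On day 6 after MCAO, 3 libraries of Cx3cr1-CreER;Yy1flox/flox mice (Yy1cKO) were set against 3 libraries of Yy1flox/flox mice (Yy1flox). The submitters label these as biological replicates. Yy1cKO and Yy1flox both carried floxed Yy1 alleles and only Yy1cKO carried CreER, which is driven by a promoter active in microglia and other myeloid cells, so that CreER itself and the loss of Yy1 cannot be told apart. Yy1 encodes a zinc finger transcription factor that also takes part in chromatin looping.

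Total counts ran from 16786830 to 52618224 in the table of the time course and the day 6 EGFP libraries, from 23105218 to 24554968 in the table of the day 14 EGFP libraries, and from 10528327 to 13936065 in the Yy1 table. Levels are counts-per-million values (CPM) scaled by TMM within each table, so levels in different tables were scaled apart. All 12 microglia markers were detected in all libraries, and their summed level ran from 9312 CPM on day 1 in wild type to 51850 CPM in EGFP- cells on day 14. Yy1 itself stood at 32.4, 28.8 and 38.7 CPM in Yy1cKO, against 75.9, 51.0 and 57.8 CPM in Yy1flox. These groups did not overlap, but the difference did not pass the test (log2 fold change -0.88 ± 0.28 SE, n = 3 each, adjusted p = 0.128 by edgeR's quasi-likelihood test over 12387 genes). In bulk libraries, fewer cells of a type and less RNA per cell cannot be told apart, and this holds for every level below.

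In the wild-type series the endothelial genes stood low in sham cells and on day 1, higher on day 6, highest on day 14 and close to 0 on day 28. Their summed level was 641 CPM in sham, 890 CPM on day 1, 5311 CPM on day 6, 13820 CPM on day 14 and 125 CPM on day 28. As a share of all counts that was 0.0650%, 0.0951%, 0.559%, 1.51% and 0.0125% in the same order. Of the 28 endothelial genes, 26 had their highest wild-type level on day 14 and 2 on day 6, and 27 had their lowest level on day 28. Each time point was 1 library, so no spread between mice can be set beside these levels.

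**Figure D1:**
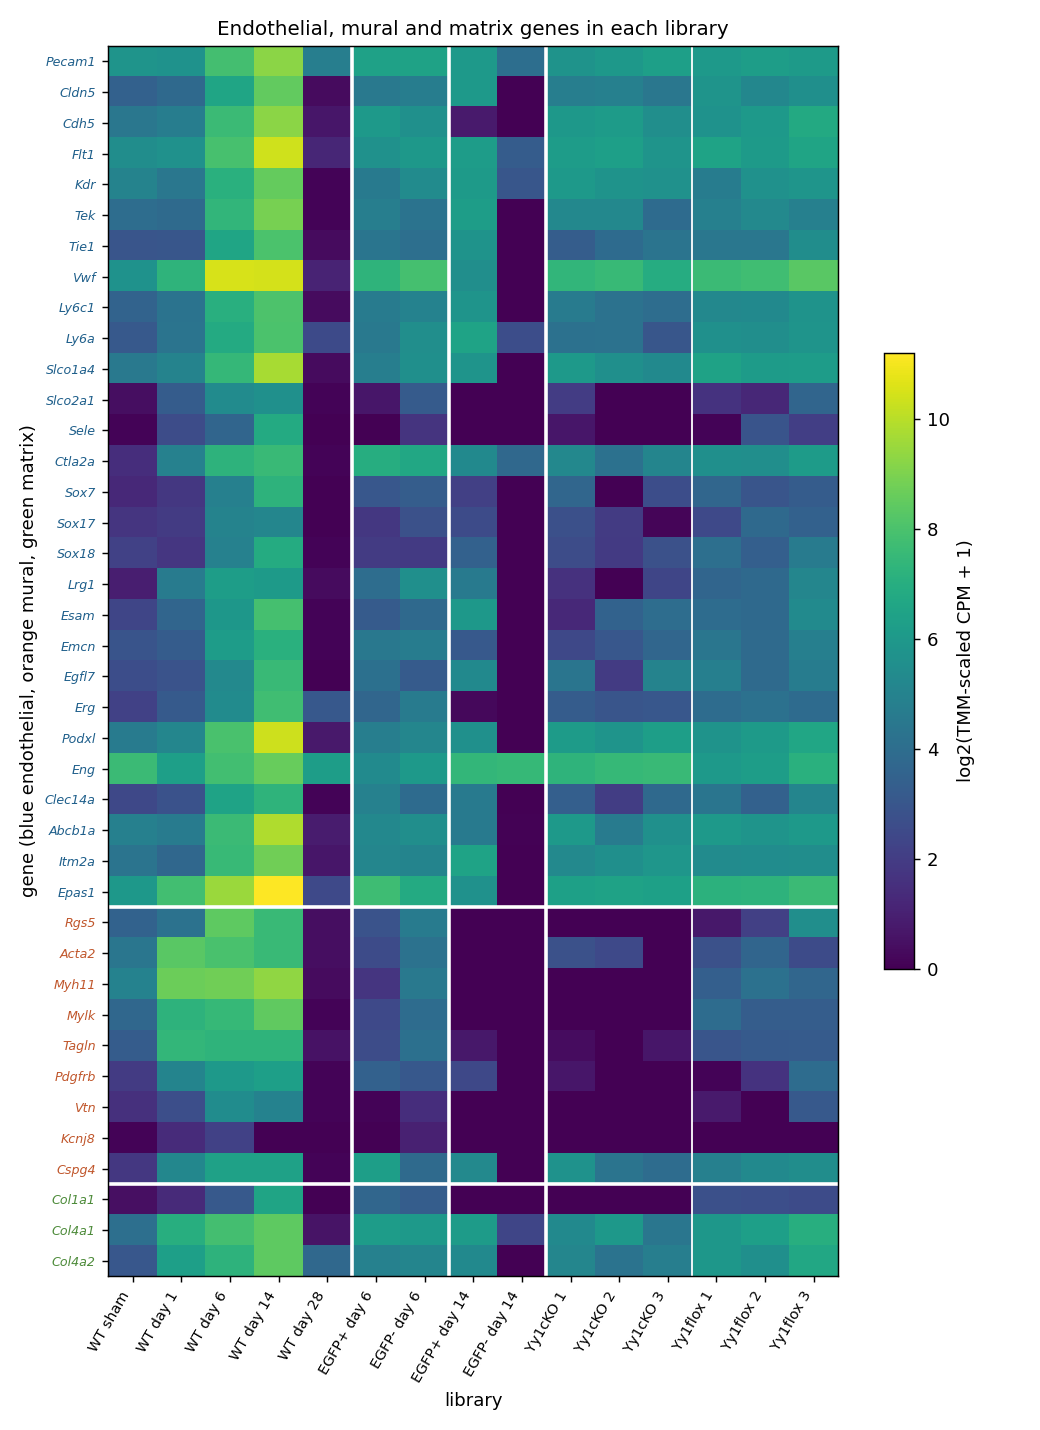
Level of each of the 40 genes (rows, grouped by class) in each of the 15 libraries (columns), as log2 of TMM-scaled CPM + 1, with white lines between the wild-type series, the EGFP libraries of each day and the Yy1 libraries. The wild-type day 6 and day 14 columns are bright over nearly the whole list, and the day 28 and day 14 EGFP- columns are dark apart from a few genes such as Eng and Pecam1.

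The receptor genes of the class followed this course. Kdr, the main receptor for vascular endothelial growth factor, had 31.1 CPM in sham cells, 20.7 CPM on day 1, 135 CPM on day 6, 377 CPM on day 14 and 0.0878 CPM on day 28. Flt1, a decoy-like receptor of the same family, stood at 44.4, 49.0, 240.2, 1320 and 1.32 CPM at these times. Tek, the angiopoietin receptor, stood at 15.1, 13.5, 163, 469 and 0.0878 CPM, and its relative Tie1 had 6.79, 6.98, 93.6, 260 and 0.263 CPM. All of these receptors were within 2-fold of sham on day 1 and several fold above it on day 6. The day 14 to sham ratio was 12.1 for Kdr (95% counting interval 11.5 to 12.8) and 31.0 for Tek (28.8 to 33.4). Counting intervals cover counting error only, and they may be too narrow in the tables of whole counts, where even counts prevailed.

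Junction and surface genes moved with them. Pecam1, which encodes CD31, had 54.5 CPM in sham cells, 51.0 CPM on day 1, 232 CPM on day 6, 607 CPM on day 14 and 26.8 CPM on day 28. Cdh5, the cadherin of endothelial adherens junctions, stood at 20.9, 25.9, 197, 612 and 0.614 CPM, and Cldn5, the main claudin of the blood-brain barrier, at 10.05, 13.2, 95.7, 364 and 0.263 CPM. Pecam1 kept a level on day 28 that was 0.491 of sham, whereas Cdh5 was at 0.0294 and Cldn5 at 0.0262 of sham. Pecam1 is also made by leukocytes, which Cdh5 and Cldn5 are not known for. Esam, another adhesion molecule of endothelial junctions, and the sialomucin genes Emcn and Podxl had day 14 to sham log2 ratios of 5.57, 4.17 and 5.66.

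Promoter sequences are shown for the receptor genes Tek and Kdr, which were highest on day 14, and for Lrg1, which was above sham from day 1, because ETS factors, among them the member Erg, are known to act at promoters of endothelial genes. The windows run from 250 bases before to 50 bases after the start (RefSeq, GRCm38.p6), 5′ to 3′ on the gene's strand. Capitals mark CAGGAA or CCGGAA, searched on both strands, so that matches on the other strand read TTCCTG or TTCCGG, and the pair cannot match the same bases.
Tek (chr4:94739039-94739338, + strand): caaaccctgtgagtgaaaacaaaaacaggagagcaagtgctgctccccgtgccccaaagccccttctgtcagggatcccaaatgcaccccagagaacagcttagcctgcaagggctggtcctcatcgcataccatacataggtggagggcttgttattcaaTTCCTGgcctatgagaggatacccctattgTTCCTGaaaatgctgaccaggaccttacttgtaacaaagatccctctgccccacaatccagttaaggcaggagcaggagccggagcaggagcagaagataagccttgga
Kdr (chr5:75978406-75978705, - strand): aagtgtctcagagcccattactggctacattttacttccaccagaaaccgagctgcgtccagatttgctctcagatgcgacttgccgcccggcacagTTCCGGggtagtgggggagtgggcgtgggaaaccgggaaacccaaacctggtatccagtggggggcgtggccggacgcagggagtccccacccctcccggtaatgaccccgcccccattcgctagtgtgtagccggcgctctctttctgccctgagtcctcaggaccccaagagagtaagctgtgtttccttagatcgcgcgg
Lrg1 (chr17:56121897-56122196, - strand): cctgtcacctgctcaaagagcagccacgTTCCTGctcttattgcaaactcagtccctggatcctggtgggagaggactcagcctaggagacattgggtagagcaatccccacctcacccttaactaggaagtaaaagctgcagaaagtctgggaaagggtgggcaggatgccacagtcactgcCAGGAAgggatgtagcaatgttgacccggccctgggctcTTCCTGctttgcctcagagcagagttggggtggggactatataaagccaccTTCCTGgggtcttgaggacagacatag
Tek held 2 matches and Lrg1 held 4 of CAGGAA, and Kdr held 1 of CCGGAA. RefSeq windows were matched for 18 of the 28 endothelial genes, and 12 of these genes (66.7%) held either motif, against 44.7% of 27025 genes with a window. By motif, 61.1% of those 18 genes held CAGGAA against 33.4% of all, and 5.56% held CCGGAA against 16.7% of all. A match describes the letters only and says nothing of binding.

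Barrier transporters and growth regulators of the endothelium reached their top on day 14 as well. Slco1a4, an organic anion transporter of brain vessels, had 22.1 CPM in sham, 30.7 CPM on day 1, 177 CPM on day 6, 840 CPM on day 14 and 0.263 CPM on day 28. Abcb1a, which encodes a drug efflux pump, had 28.4, 24.5, 199.6, 931 and 0.790 CPM. Some of its reads may be shared with the related gene Abcb1b, so its level is uncertain. The transcription factor genes Sox7, Sox17, Sox18 and Erg had log2 ratios to sham between 2.73 and 3.57 on day 6. On day 14 Sox7 was at 5.92 and Erg at 5.59, while Sox17 was at 3.43. Epas1, which encodes a hypoxia-inducible factor subunit, had the highest level of any member on day 14, with 61.7 CPM in sham, 222 CPM on day 1, 724 CPM on day 6, 2338 CPM on day 14 and 4.56 CPM on day 28. Clec14a, Egfl7 and Itm2a, the other genes typical of endothelium, had day 6 to sham log2 ratios of 4.08, 2.60 and 3.27.

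A smaller set of endothelial genes was already well above sham on day 1. Lrg1, a secreted regulator of vessel growth, had 0.900 CPM in sham cells, 23.9 CPM on day 1, 75.0 CPM on day 6, 67.2 CPM on day 14 and 0.263 CPM on day 28. Ctla2a, a protease inhibitor gene, stood at 1.76, 29.3, 150.4, 191 and 0.0878 CPM. Vwf, which encodes von Willebrand factor, stood at 51.0, 156, 1475, 1411 and 1.14 CPM. Lrg1 and Ctla2a were the only endothelial members past the size rule on day 1, which asks for a log2 ratio of 2 or more in size and at least 20 CPM in 1 of both libraries, and which 5.59% of all genes considered passed above sham. Vwf (log2 ratio 1.59) and Epas1 (1.83) were below it. Sele, the endothelial selectin that takes up leukocytes, had 5 counts in sham (0.0937 CPM) and 5.0 CPM on day 1, 11.6 CPM on day 6 and 114 CPM on day 14. It held 0 counts on day 28, which allows up to 0.132 CPM. Slco2a1, a prostaglandin transporter gene, had 8.54 CPM on day 1 against 0.337 CPM in sham. Of 6 further genes of venous and activated endothelium, 2 were past the rule on day 1. Ackr1, a chemokine-binding receptor of venules, stood at 44.2 CPM on day 1 against 0.862 CPM in sham, and Nr2f2, a transcription factor of veins, at 34.6 against 6.63 CPM. Selp, the other vascular selectin gene, had 15.3 CPM on day 1 against 0 counts in sham. Of 7 further arterial genes, 6 were above sham on day 1 (median log2 ratio of the 7 0.47), although none reached the 20 CPM of the size rule. Gja4, a connexin gene, had 6.74 CPM on day 1 against 0.600 CPM in sham, and Efnb2, a guidance ligand gene, was the one below sham (log2 ratio -1.21).

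Lrg1 and Vwf are also made by cells other than endothelium. Neutrophils make Lrg1, and the 9 neutrophil markers measured summed to 703 CPM in sham, 2390 CPM on day 1, 850 CPM on day 6, 410 CPM on day 14 and 2981 CPM on day 28. Csf3r alone made up 654, 190, 462, 399 and 616 CPM of these sums. The other 8 neutrophil markers summed to 49.7 CPM in sham, 2200 CPM on day 1, 388 CPM on day 6, 11.1 CPM on day 14 and 2365 CPM on day 28, and the list median log2 ratio to sham was 4.73 on day 1 and 2.63 on day 6. That summed level was thus above sham together with Lrg1 on days 1 and 6, but not on days 14 and 28. On day 14 it was below sham with Lrg1 at 67.2 CPM, and on day 28 above sham with Lrg1 at 0.263 CPM. The part of neutrophils in the Lrg1 level was not tested. Platelets carry Vwf, and the 9 platelet markers summed to 19.6, 6.80, 9.81, 17.7 and 10.5 CPM in the same order, with 2, 2, 2, 6 and 8 of the 9 at 0 counts. Ppbp, a defining platelet gene, was at or below 0.525 CPM in all 5 wild-type libraries. Ly6c1 and Ly6a, surface antigens of brain endothelium that leukocytes share, stood at 266 and 260 CPM on day 14 against 10.9 and 7.85 CPM in sham. Ly6c1 shares near-identical sequence with the monocyte gene Ly6c2, which stood at 0.925 CPM on day 14 and at 42.0 CPM on day 28, when Ly6c1 was at 0.263 CPM.

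Eng, which encodes the TGF-beta co-receptor endoglin, was highest on day 14 and lowest on day 28 like most of the class, but changed less. It had 199 CPM in sham cells, 77.7 CPM on day 1, 223 CPM on day 6, 379 CPM on day 14 and 74.3 CPM on day 28. It was the endothelial member with the highest sham level, the only one below its sham level by more than 1 on the log2 scale on day 1 (-1.34), and past the size rule on no day. Macrophages can make Eng as well, and all 12 microglia markers were below sham on day 1, with a median log2 ratio of -2.5. The part of microglia in the Eng signal was not tested.

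The mural genes split in time. Contractile genes of smooth muscle were already at their day 6 level on day 1, whereas pericyte genes reached theirs on day 6. The summed level of the contractile genes Acta2, Myh11, Mylk and Tagln was 71.4 CPM in sham, 1041 CPM on day 1, 1016 CPM on day 6, 1331 CPM on day 14 and 1.14 CPM on day 28. Summed over the other 5 mural genes, the level came to 17.9, 91.6, 542, 385 and 0.614 CPM. This split within the list was made after the values were seen.

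Acta2, the smooth muscle actin gene, had 20.3 CPM in sham cells, 317 CPM on day 1, 250 CPM on day 6, 188 CPM on day 14 and 0.351 CPM on day 28. Myh11, the smooth muscle myosin heavy chain gene, stood at 30.2, 406, 433, 640 and 0.263 CPM, and Mylk, the myosin light chain kinase gene, at 12.2, 148, 180, 348 and 0.0878 CPM. Tagln, an actin-binding protein gene of smooth muscle, stood at 8.70, 170, 153, 154 and 0.439 CPM and had the highest log2 ratio of all members on day 1 (4.14). Acta2 was thus highest on day 1, and Myh11 and Mylk were highest on day 14. Rgs5, a regulator of G protein signalling and the best known pericyte marker, stood at 10.6, 17.6, 345, 192 and 0.351 CPM. The Rgs5 to sham ratio was 1.67 on day 1 (counting interval 1.5 to 1.86) and 32.7 on day 6 (30.0 to 35.6).

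Pdgfrb, the receptor by which endothelial platelet-derived growth factor holds pericytes to the vessel, had 2.81 CPM in sham cells, 31.8 CPM on day 1, 65.3 CPM on day 6, 79.2 CPM on day 14 and 0.0878 CPM on day 28. Cspg4, the NG2 proteoglycan gene of pericytes and oligodendrocyte precursors, stood at 2.51, 35.1, 84.7, 84.0 and 0.0878 CPM. Both were between the contractile genes and Rgs5 in timing. Vtn, which encodes vitronectin, had 1.89, 5.45, 42.9, 29.7 and 0.0878 CPM. Kcnj8, a potassium channel subunit gene of pericytes, was low throughout, with 0.0750, 1.57 and 3.44 CPM in sham and on days 1 and 6. It held 0 counts on days 14 and 28, which allows up to 0.163 and 0.132 CPM. Of 10 further mural genes fixed as context, 6 were past the size rule above sham on day 1, 6 on day 6 and 4 on day 14. Those were all of the 10 that reached 20 CPM in 1 of both libraries. Most of the 10 were so low in sham, such as Tbx18 at 0.62 CPM, that reaching 20 CPM later was enough to pass. These counts thus largely tell which genes reached 20 CPM. The shares of all genes considered were 5.59%, 6.25% and 12.9%. Among the 10, Cald1, another actin regulator of smooth muscle, had 176 CPM on day 1 against 11.98 CPM in sham cells. Notch3, a mural receptor gene, had 33.8 against 5.15 CPM.

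The summed mural level was 1.27 of the summed endothelial level on day 1, against 0.139 in sham, 0.293 on day 6, 0.124 on day 14 and 0.0140 on day 28. Day 1 was thus the only wild-type library in which mural transcripts exceeded endothelial ones. Vwf, which is high in larger vessels and veins, was 6.01 times Cdh5 on day 1 and 7.5 times on day 6, against 2.44 times in sham, 2.30 times on day 14 and 1.86 times on day 28. That ratio was also chosen after its values were seen, and on day 28 it rested on only 26 Vwf and 14 Cdh5 counts.

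**Figure D2:**
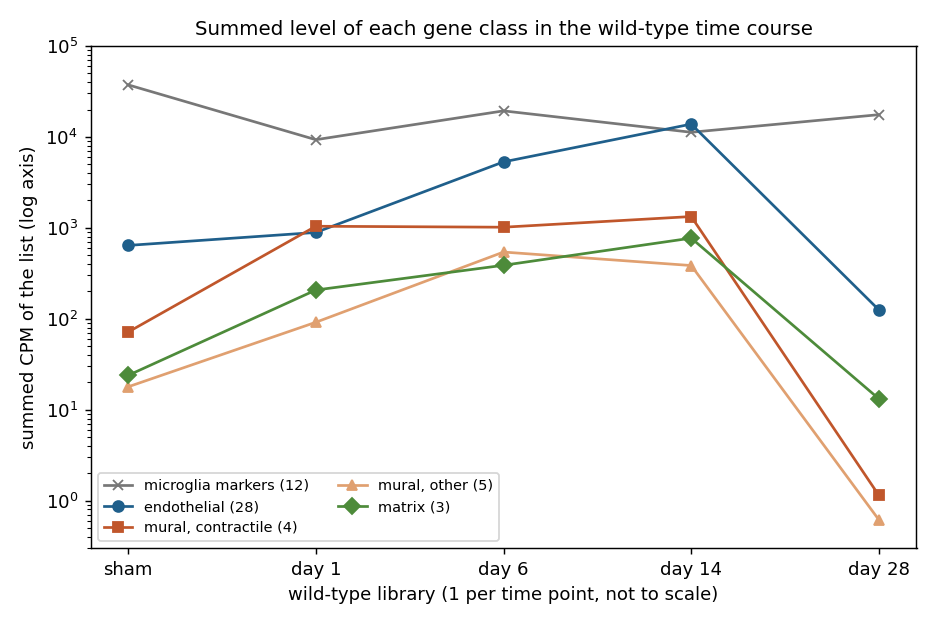
Summed CPM (log axis) of the microglia markers, the endothelial, the contractile and other mural, and the matrix genes in the 5 wild-type libraries, 1 per time point. The contractile sums on days 1 and 6 are 1041 and 1016 CPM, the endothelial sum passes the microglia marker sum on day 14 (13820 against 11240 CPM), and every vascular sum drops on day 28.

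The 3 collagen genes differed in timing too. Col4a1 and Col4a2 encode the collagen IV chains of the vascular basement membrane and were past the size rule from day 1. Col4a1 had 16.2 CPM in sham cells, 127 CPM on day 1, 230 CPM on day 6, 338 CPM on day 14 and 0.527 CPM on day 28. Col4a2 stood at 7.29, 78.7, 150.0, 341 and 12.6 CPM. Col1a1, the fibrillar collagen I gene made by fibroblasts and other stromal cells, stood at 0.375, 1.49, 7.75 and 91.0 CPM in sham and on days 1, 6 and 14. It held 0 counts on day 28. Col1a1 thus had only 347 counts on day 6 but 1672 on day 14, at a lower depth. Of 19 further matrix genes, 6 were past the rule above sham on day 1, 10 on day 6 and 15 on day 14. On these days 11, 13 and 17 of the 19 reached 20 CPM in 1 of both libraries. Here too, a gene very low in sham is past the rule once it reaches 20 CPM. The shares of all genes considered were 5.59%, 6.25% and 12.9%. Of 6 fibroblast markers, 4 were above sham on day 14 (median log2 ratio of the 6 1.26) and 1, the collagen cross-linking enzyme gene Lox, was past the rule with 38.7 CPM against 2.85 CPM in sham. Dcn had 0.871 CPM on day 14 against 0.375 CPM in sham, and Lum and Dpt held 0 counts on day 14.

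The promoter of Col4a2 is shown because Col4a1 and Col4a2 are a head-to-head pair. In GRCm38 (GENCODE M21) Col4a1 (chr8:11198423-11312826, - strand) and Col4a2 (chr8:11312805-11449287, + strand) lie side by side, so that the annotated genes overlap at their starts on opposite strands. Whether the authors counted by strand was not given in the sources used here, so reads of that overlap cannot be told apart. The window below follows the Col4a2 strand and holds neither motif.
Col4a2 (chr8:11312555-11312854, + strand): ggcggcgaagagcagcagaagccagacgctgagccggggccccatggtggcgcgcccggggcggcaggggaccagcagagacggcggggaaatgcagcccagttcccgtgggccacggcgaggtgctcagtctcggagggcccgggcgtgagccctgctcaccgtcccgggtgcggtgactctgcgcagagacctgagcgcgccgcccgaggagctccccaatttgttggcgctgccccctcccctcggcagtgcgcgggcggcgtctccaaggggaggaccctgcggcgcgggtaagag
Both genes were above sham from day 1 to day 14 (Col4a1 log2 ratios 2.89, 3.75 and 4.30, Col4a2 3.27, 4.19 and 5.37). They parted on day 28, with Col4a1 at -3.49 and Col4a2 at 0.72.

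Counted over the list, 10 of the 40 genes were past the size rule above sham on day 1, where 20 of them reached 20 CPM in 1 of both libraries, and 5.59% of the 7203 genes considered were past it. These were 6 mural, 2 matrix and 2 endothelial genes. None was past it below sham (background 2.00%). On day 6, 36 of the 37 genes that reached 20 CPM were past it above sham against a background of 6.25% of 7092 genes, and none below (background 0.0846%). On day 14 these were 38 of 39 genes above against a background of 12.9% of 7833, and none below (background 6.82%). A member very low in sham, such as Lrg1 at 0.900 CPM, is past the rule once it reaches 20 CPM. The high shares among the members considered were thus partly set by the level needed to be considered. The 4 days were all set against the same sham library, so their ratios share its error.

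The medians over all members of a class, whatever their level, set the classes apart on day 1. On day 1 the median log2 ratio to sham was 0.38 for endothelial, 3.36 for mural and 2.89 for matrix genes, against 0.00 for all genes considered. On day 6 the medians were 3.30, 3.92 and 3.75 in the same order, against -0.09. On day 14 they were 4.91, 4.06 and 5.37, against -0.03. The highest ratios on day 6 belonged to Ctla2a (5.78), Lrg1 (5.32), Slco2a1 (4.97) and Rgs5 (4.90). On day 14 they belonged to Sele (6.72), Ctla2a (6.12), Col1a1 (6.06) and Sox7 (5.92), and Acta2 had the lowest ratio of the mural genes with counts (3.15). With RLE scaling, the median of all genes considered moved by 0.17 on day 14.

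**Figure D3:**
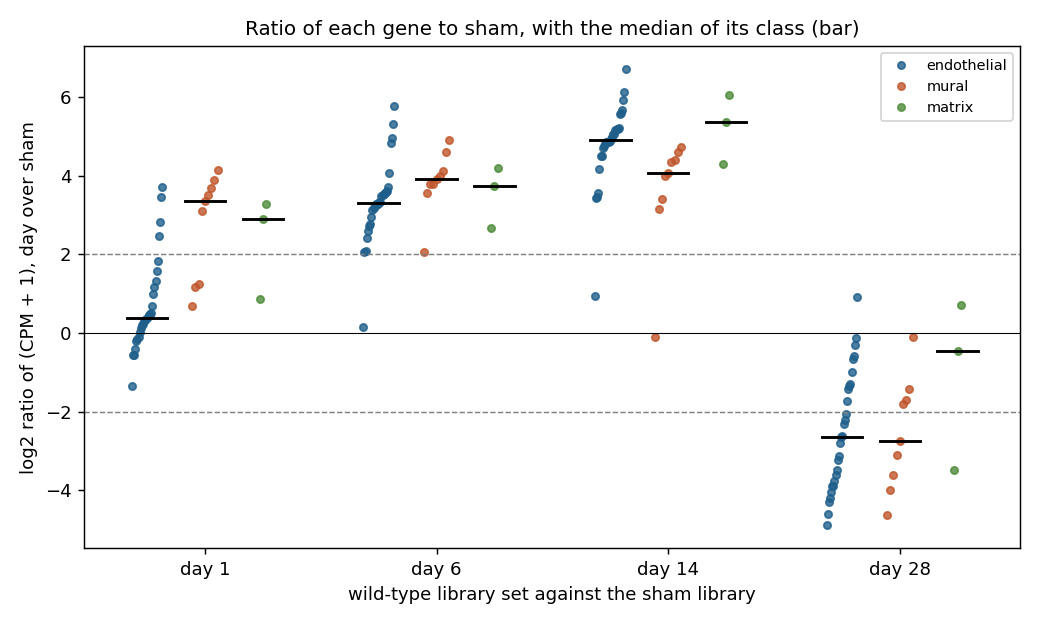
Log2 ratio of CPM + 1 to the sham library for each gene (points) by class and day, with the class median (black bar) and the thresholds of the size rule (dashed). On day 1 the mural median is 3.36 and the endothelial median 0.38, on days 6 and 14 all medians lie between 3.30 and 5.37, and on day 28 the endothelial and mural medians are at -2.64 and -2.75.

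Other cell type markers moved along the series as well. The summed endothelial level was 0.0172 of the summed level of the 12 microglia markers in sham cells, and at the later times it was 0.0955, 0.275, 1.23 and 0.00712 of it. The microglia markers themselves summed to 37350, 9312, 19320, 11240 and 17550 CPM. Ptprc, which encodes CD45, stood at 620, 623, 550, 445 and 1294 CPM, and Itgam, which encodes CD11b, at 1490, 1031, 1432, 722 and 1020 CPM. The library with the highest endothelial sum was thus the one with the lowest Ptprc and Itgam levels of the wild-type series. It was also the shallowest of the 5 wild-type libraries and had 11823 genes detected. Astrocyte markers summed to 161, 72.7, 132, 80.1 and 107 CPM, of which Slc1a3 alone made up 152, 30.3, 82.4, 44.7 and 104 CPM. The other 6 astrocyte markers summed to 9.30 CPM in sham, 42.4 CPM on day 1, 49.2 CPM on day 6, 35.5 CPM on day 14 and 2.90 CPM on day 28, so that they too were above sham from day 1 to day 14 and below it on day 28. The part of sorted vascular or other brain cells, or of their RNA, in these levels was not tested.

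On day 28 nearly all of the 40 genes were close to 0. Against sham, 10 of the 40 genes were past the size rule below it, of 12 that reached 20 CPM in 1 of both libraries, and 15.2% of 7616 genes were past it in that direction. None was past it above sham (background 11.1%). Those below were 8 endothelial and 2 mural genes, led by Kdr (log2 ratio -4.89), Myh11 (-4.63), Vwf (-4.60) and Flt1 (-4.29). Against day 6 the count was 36 below and none above, of 37 that reached 20 CPM, with backgrounds of 17.7% and 8.85% of 7861 genes. A member near 0 on day 28 that reached 20 CPM in sham or on day 6 is past the rule by that alone. The median log2 ratios to day 6 were -6.24 for endothelial, -6.74 for mural and -3.47 for matrix genes, against 0.20 for all genes considered. Vwf had the lowest of them at -9.43, with 26 counts on day 28 against 66050 on day 6.

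A few members kept a level on day 28. Eng had 74.3 CPM, Pecam1 26.8 CPM, Col4a2 12.6 CPM, Erg 7.46 CPM and Ly6a 4.65 CPM. Erg and Col4a2 were the only members with a day 28 level above sham (log2 ratios 0.92 and 0.72). Of these, Eng, Pecam1 and Ly6a are known in leukocytes as well. Monocyte markers summed to 2016 CPM on day 28 against 61.4 CPM in sham, neutrophil markers to 2981 against 703 CPM and dendritic cell markers to 442 against 5.73 CPM. Of the neutrophil sum, the markers other than Csf3r made up 2365 CPM on day 28 against 49.7 CPM in sham. The smaller number of genes detected, 9886 on day 28 against 16009 in sham, belongs beside these zeros.

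Vascular genes outside the list were not all low on day 28. Of 74 such genes fixed as context, 21 reached 20 CPM in 1 of both libraries, and the size rule took 5 above sham and 4 below. Of all genes considered it took 11.1% above sham and 15.2% below. Angpt2, the angiopoietin gene of sprouting vessels, had 125 CPM on day 28 against 5.60 CPM in sham, and Anpep, an aminopeptidase gene of pericytes and myeloid cells, had 107 against 2.06 CPM. Nostrin, a regulator of endothelial nitric oxide synthase, had 28.4 CPM on day 28 against 2.04 CPM in sham, and Pglyrp1 and Cxcr4, which leukocytes also make, were the others above. Those below were Slc2a1, the glucose transporter gene of the barrier, with 0.614 CPM on day 28 against 67.3 CPM in sham, Ptprb with 1.14 against 79.2 CPM, Nid2 and Lamc1. Cd34 had 141 CPM in both libraries.

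Between reporter states on day 6, endothelial genes stood close to each other, while 7 of the 9 mural genes were lower in EGFP+ cells. The endothelial sum was 1101 CPM in EGFP+ and 1211 CPM in EGFP- cells, and its ratio to the microglia marker sum was 0.110 and 0.111. Cdh5 had 64.0 CPM in EGFP+ and 47.9 CPM in EGFP- cells, and Cldn5 had 22.1 and 26.2 CPM in this order. Pecam1 had 82.8 and 87.1 CPM, Tek 26.6 and 18.4 CPM, and Flt1 49.0 and 62.4 CPM. Kdr (23.5 CPM in EGFP+ and 41.3 CPM in EGFP- cells) and Vwf (154 and 238 CPM) were lower in EGFP+ cells, though within 2-fold. The median log2 ratio of EGFP+ over EGFP- was -0.32 for endothelial, -1.50 for mural and 0.20 for matrix genes, against -0.04 for all genes considered. The contractile mural genes summed to 16.8 CPM in EGFP+ and 70.7 CPM in EGFP- cells, and the other mural genes to 92.6 and 48.5 CPM. The ratio of the mural to the endothelial sum was thus alike, at 0.0993 and 0.0985. For 10 further mural genes the median log2 ratio was -0.42, with 6 negative and 3 positive.

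Of the 40 genes, 25 reached 20 CPM in 1 of both libraries on day 6, and 3 of these were mural. The size rule here asks for a log2 ratio of 1 or more in size. It took 2 of the 25 above EGFP- cells and 4 below them. The backgrounds were 7.53% and 11.9% of 7252 genes, so both counts were near the background. Myh11 had 2.32 CPM in EGFP+ and 21.8 CPM in EGFP- cells (log2 ratio -2.78), and Rgs5 had 6.18 and 24.4 CPM (-1.82). Lrg1 (15.2 and 46.3 CPM, -1.54) and Ly6a (22.0 and 45.04 CPM, -1.0) were the endothelial genes past it below. Acta2 (4.87 and 17.6 CPM), Mylk (4.56 and 14.7 CPM) and Tagln (5.02 and 16.7 CPM) pointed the same way without reaching 20 CPM. Neutrophil markers summed to 440 CPM in EGFP+ and 11910 CPM in EGFP- cells (156 and 11500 CPM without Csf3r), and monocyte markers to 1524 and 4961 CPM. Their part in the lower Lrg1 and Ly6a levels was not tested.

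Cspg4 and Pdgfrb were the mural genes higher in EGFP+ cells on day 6, and only Cspg4 was past the rule. It stood at 76.1 CPM in EGFP+ and 13.8 CPM in EGFP- cells (log2 ratio 2.38, ratio 5.51, counting interval 5.01 to 6.06). Clec14a, a C-type lectin gene of endothelium, was past the rule above as well, with 29.2 CPM in EGFP+ and 14.0 CPM in EGFP- cells. Pdgfrb had 10.2 CPM in EGFP+ and 7.52 CPM in EGFP- cells, Epas1 had 208 and 114 CPM, and Egfl7 had 16.5 and 8.14 CPM. Slco2a1 had 0.618 CPM in EGFP+ and 8.27 CPM in EGFP- cells. Sele and Kcnj8 held 0 counts in EGFP+ cells, against 2.26 and 1.04 CPM in EGFP- cells. Collagen levels were near each other, with Col4a1 at 72.4 CPM in EGFP+ and 62.8 CPM in EGFP- cells, Col4a2 at 29.3 and 33.5 CPM, and Col1a1 at 12.1 and 8.82 CPM.

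On day 14 the reporter states lay further apart, and most vascular genes held no count in EGFP- cells. In the EGFP- library 21 of 28 endothelial, all 9 mural and 2 of 3 matrix genes held 0 counts, against 2, 6 and 1 in the EGFP+ library. A count of 0 allows up to 0.118 CPM in EGFP- and 0.135 CPM in EGFP+ cells. Yy1, no vascular gene, was low in both libraries too, with 1.71 CPM in EGFP+ and 1.41 CPM in EGFP- cells. In the wild-type and day 6 EGFP libraries it stood between 49.0 and 174 CPM. Low counts in these 2 libraries were thus not confined to vascular genes, and the cause was not tested. The endothelial sum was 1233 CPM in EGFP+ and 227 CPM in EGFP- cells, of which Eng alone made up 170 and 178 CPM. The endothelial sum was 0.0248 of the microglia marker sum in EGFP+ and 0.00438 of it in EGFP- cells, both below 0.110 on day 6 in EGFP+ cells.

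The genes at 0 in EGFP- cells had a range of levels in EGFP+ cells. Tek stood at 73.7 CPM in EGFP+ cells, Cldn5 at 63.4 CPM, Vwf at 45.6 CPM and Epas1 at 49.9 CPM, each against 0 counts in EGFP- cells. Itm2a had the highest ratio, with 88.3 CPM and 0 counts in this order. Other members had counts in both states, with Pecam1 at 65.8 CPM in EGFP+ and 15.4 CPM in EGFP- cells, Flt1 at 72.7 and 8.44 CPM and Kdr at 66.7 and 6.91 CPM. Cdh5 stood apart from the other junction genes, with 17 counts (0.763 CPM) in EGFP+ and 0 counts in EGFP- cells. Erg (0.180 CPM in EGFP+ cells), Slco2a1 and Sele (0 counts in both) were near absent too. Col4a1 had 70.1 CPM in EGFP+ and 4.08 CPM in EGFP- cells, Col4a2 39.1 CPM and 0 counts, and Col1a1 0 counts in both.

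Of the 40 genes, 23 reached 20 CPM in 1 of both libraries on day 14. Past the size rule were 22 of them above EGFP- cells and none below, against backgrounds of 11.2% and 10.9% of 7085 genes. These were 19 endothelial genes, Cspg4, Col4a1 and Col4a2. The median log2 ratio was 4.22 for endothelial, 0.00 for mural and 3.81 for matrix genes, against 0.03 for all genes considered. The ratio of a gene at 0 depends on the pseudocount of 1 CPM, and only 6 of the 22 had at least 10 counts in both libraries. A gene at 0 counts in EGFP- cells is past the rule once it reaches 20 CPM in EGFP+ cells. Cspg4 (37.7 CPM) and Pdgfrb (4.40 CPM) were the mural genes above 1 CPM in EGFP+ cells, while Acta2, Myh11, Mylk and Rgs5 held 0 counts in both states. The 8 neutrophil markers other than Csf3r summed to 1090 CPM in EGFP+ and 0.157 CPM in EGFP- cells, where 7 of them held 0 counts, while Csf3r stood at 1223 and 1241 CPM. Monocyte markers summed to 543 CPM in EGFP+ and 94.0 CPM in EGFP- cells, and platelet markers to 16.1 and 40.3 CPM. Their part in the higher vascular levels of EGFP+ cells was not tested. The EGFP- library also had fewer genes detected (10892) than the EGFP+ library (12498).

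**Figure D4:**
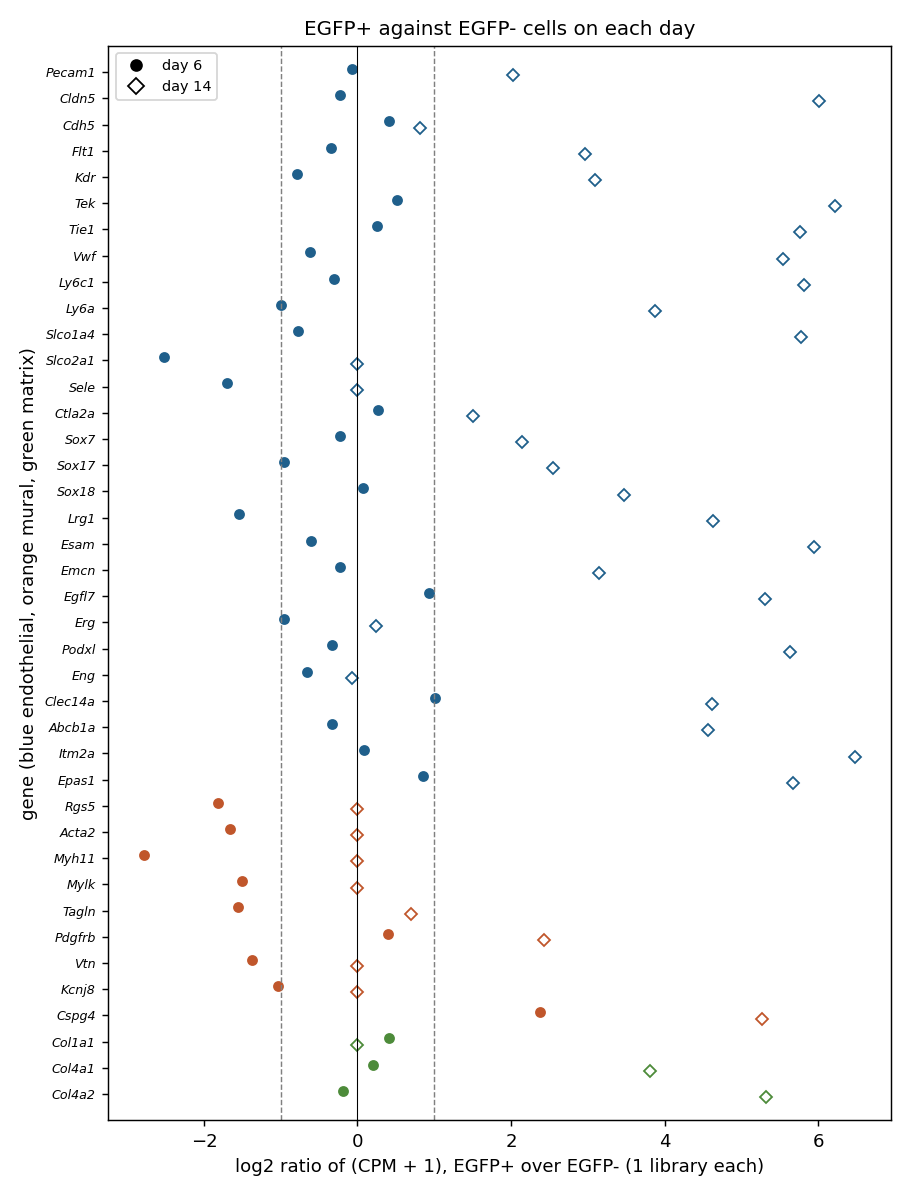
Log2 ratio of CPM + 1, EGFP+ over EGFP-, for each gene on day 6 (filled circles) and day 14 (open diamonds), coloured by class, with the size rule dashed and 1 library per state and day. Endothelial genes lie around 0 on day 6 and mostly between 2 and 6.48 on day 14, and mural genes apart from Cspg4 and Pdgfrb lie below 0 on day 6 and at or near 0 on day 14.

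The day 6 libraries came from mice of 4 genotypes, and their vascular levels differed widely. The endothelial sum was 5311 CPM in wild type, 1101 and 1211 CPM in the EGFP+ and EGFP- libraries, 1107, 1051 and 1045 CPM in Yy1cKO and 1256, 1272 and 1786 CPM in Yy1flox. The mural sum was 1557 CPM in wild type, 109 and 119 CPM in the EGFP libraries, 58.2, 23.5 and 15.1 CPM in Yy1cKO and 66.7, 89.1 and 145 CPM in Yy1flox. The wild-type library was thus the highest of its day for both classes, with a mural sum over 10 times that of every other day 6 library. On day 14 the wild-type library was again the highest, with an endothelial sum of 13820 CPM against 1233 and 227 CPM in the EGFP+ and EGFP- libraries. The wild-type and EGFP libraries of day 6 were in 1 table and scaled together. Each was 1 library, so strain, sort, mouse and library preparation cannot be told apart between them. The Yy1 and day 14 EGFP tables were scaled apart, and for these the table cannot be told apart either.

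The Yy1 comparison was the only one with replicates. Of the 40 genes, 35 passed the filter on low counts and were tested, and Sele, Rgs5, Pdgfrb, Vtn and Kcnj8 were not. In Yy1cKO cells 1 member, Eng, rose and 5 members, Epas1, Ly6a, Myh11, Mylk and Col4a2, fell at an adjusted p below 0.05 by edgeR's quasi-likelihood test. Over all 12387 genes tested 1.55% rose (192 genes) and 1.05% fell (130 genes). With scaling by total counts that split was 127 higher and 193 lower.

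Myh11 held 0 counts in all 3 Yy1cKO libraries, against 9.63, 16.9 and 12.1 CPM in Yy1flox. The groups did not overlap, and the level was at least 140.5-fold lower in Yy1cKO, taking 3 counts over the group as the floor (0.0914 CPM, adjusted p = 0.00188 by edgeR). Mylk also held 0 counts in all Yy1cKO libraries, against 14.4, 8.73 and 8.78 CPM in Yy1flox, and was at least 116-fold lower (adjusted p = 0.00485 by edgeR). Both are contractile genes of smooth muscle. Without Yy1flox replicate 1 the adjusted p of Mylk was 0.106. Tagln, of the same apparatus, had 0.294 CPM, 0 counts and 0.590 CPM in Yy1cKO, against 6.78, 7.95 and 8.36 CPM in Yy1flox, and missed the threshold (adjusted p = 0.129 by edgeR).

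Acta2 did not share this gap. It had 5.79 and 4.58 CPM and 0 counts in Yy1cKO, against 5.86, 11.4 and 4.88 CPM in Yy1flox, and the groups overlapped (log2 fold change -1.09 ± 1.26 SE, adjusted p = 0.806 by edgeR). Cspg4 had 51.5, 19.0 and 14.5 CPM in Yy1cKO and 28.6, 38.7 and 43.6 CPM in Yy1flox, again overlapping (-0.38 ± 0.43, adjusted p = 0.803 by edgeR). Rgs5 held 0 counts in all Yy1cKO libraries, but its level in Yy1flox rested on 1 library, with 0.670, 3.28 and 44.9 CPM in replicates 1 to 3. Pdgfrb (0.0837, 2.16 and 14.5 CPM) and Vtn (0.754 and 7.67 CPM in replicates 1 and 3, 0 counts in replicate 2) were also highest in Yy1flox replicate 3. Pdgfrb had 0.589 CPM in 1 Yy1cKO library and 0 counts in the others, and Vtn had 0 counts in all of them. Kcnj8 held 0 counts in all 6 libraries. The 10 further mural genes summed to 4.61, 12.5 and 18.1 CPM in Yy1cKO and 16.9, 30.1 and 54.7 CPM in Yy1flox, and of the 3 that were tested none was called.

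Among the endothelial genes, Epas1 and Ly6a fell in Yy1cKO. Epas1 had 80.1, 85.2 and 81.8 CPM in Yy1cKO, against 144, 152 and 198 CPM in Yy1flox. The groups lay well apart (log2 fold change -0.99 ± 0.19 SE, adjusted p = 0.00689 by edgeR), and without Yy1flox replicate 3 the adjusted p was 0.0700. Ly6a had 17.3, 17.8 and 7.08 CPM in Yy1cKO, against 48.2, 44.8 and 54.5 CPM in Yy1flox (-1.80 ± 0.39, adjusted p = 0.0174 by edgeR). Its adjusted p was 0.144, 0.0837 and 0.118 without Yy1flox replicates 1, 2 and 3. Epas1 and Ly6a are both among the 12 endothelial members that leukocytes also make, and of the 15 more restricted members tested none was called. By median fold change the restricted members were lower all the same, with a log2 value of -1.02 and 14 of 15 negative. The shared ones had -0.54 and 10 of 12 negative. Lower in all Yy1cKO libraries than in all Yy1flox libraries were 6 of the 15 and 6 of the 12, against 11.6% of all genes tested. The difference between these sets was not tested.

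Eng rose, with 155, 182 and 191 CPM in Yy1cKO, against 63.8, 73.4 and 135 CPM in Yy1flox (log2 fold change 0.96 ± 0.24 SE, adjusted p = 0.0470 by edgeR). The groups did not overlap, but the adjusted p was 0.0758, 0.0753 and 0.125 without Yy1cKO replicates 1, 2 and 3, and 0.313 and 0.225 without Yy1flox replicates 1 and 2. With scaling by total counts it was 0.0791. All 12 microglia markers rose in Yy1cKO (median log2 fold change 0.96), their sums being 25800, 27550 and 25450 CPM in Yy1cKO and 15810, 15870 and 17020 CPM in Yy1flox. Itgam rose as well, with 1534, 1365 and 1508 CPM in Yy1cKO and 752, 809 and 886 CPM in Yy1flox (log2 fold change 0.85 ± 0.12 SE, adjusted p = 0.000494 by edgeR).

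The defining endothelial genes did not pass the test. Pecam1 had 52.2, 62.2 and 78.2 CPM in Yy1cKO and 66.0, 73.9 and 68.2 CPM in Yy1flox (log2 fold change -0.11 ± 0.24 SE), and Cdh5 had 62.3, 68.9 and 45.2 CPM in Yy1cKO and 50.8, 66.2 and 109 CPM in Yy1flox (-0.35 ± 0.29). Kdr had 64.8, 52.5 and 49.7 CPM in Yy1cKO and 25.0, 49.5 and 56.2 CPM in Yy1flox (0.36 ± 0.31), and Tek had 36.7, 35.9 and 14.2 CPM in Yy1cKO and 28.2, 38.1 and 28.6 CPM in Yy1flox (-0.13 ± 0.39). All of these groups overlapped. Flt1 overlapped too, with 71.3, 78.1 and 53.6 CPM in Yy1cKO and 90.3, 67.9 and 90.8 CPM in Yy1flox.

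Cldn5 and Vwf were lower in each Yy1cKO library than in each Yy1flox library without passing. Cldn5 had 27.0, 28.5 and 20.5 CPM in Yy1cKO and 54.7, 34.9 and 46.1 CPM in Yy1flox (log2 fold change -0.83 ± 0.33 SE, adjusted p = 0.242 by edgeR). Vwf had 163, 184 and 119 CPM in Yy1cKO and 194, 215 and 322 CPM in Yy1flox (-0.65 ± 0.21, adjusted p = 0.132 by edgeR). Lrg1, of which neutrophils are another source, had 2.06 CPM, 0 counts and 4.03 CPM in Yy1cKO and 11.6, 13.2 and 33.9 CPM in Yy1flox (adjusted p = 0.119 by edgeR). Over the class, 24 of 27 tested endothelial genes had a negative fold change, with a median of -0.83 against -0.02 for all genes tested. In 12 of the 27 all Yy1cKO libraries lay below all Yy1flox libraries and in 1, Eng, above them, against backgrounds of 11.6% and 9.45% of all genes tested. Other endothelial genes outside the list gave a median of -0.43 over 12 tested, with none called.

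**Figure D5:**
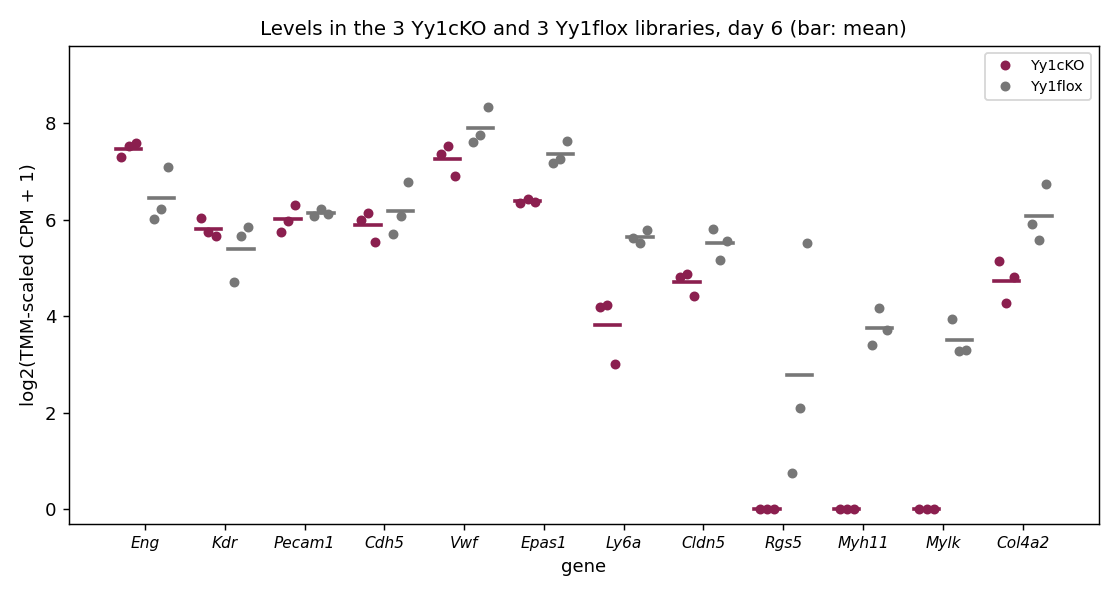
Log2 of TMM-scaled CPM + 1 of 12 genes in the 3 Yy1cKO and 3 Yy1flox libraries of day 6, each point a library and each bar a group mean. Eng is higher in all Yy1cKO libraries, Epas1, Ly6a and Col4a2 are lower in all of them, Myh11 and Mylk are at 0 in all of them, and the Rgs5 level of Yy1flox rests on replicate 3.

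Among the collagens, Col4a2 fell. It had 34.1, 18.3 and 27.0 CPM in Yy1cKO, against 59.4, 46.9 and 105 CPM in Yy1flox (log2 fold change -1.41 ± 0.34 SE, adjusted p = 0.0361 by edgeR), with no overlap. The adjusted p was 0.0765 and 0.0757 without Yy1cKO replicates 2 and 3, and 0.147 and 0.321 without Yy1flox replicates 1 and 3. Col4a1, its head-to-head partner, had 38.7, 61.0 and 20.3 CPM in Yy1cKO and 59.9, 79.0 and 129 CPM in Yy1flox, with overlap (-1.15 ± 0.36, adjusted p = 0.114 by edgeR). The adjusted p of Col4a1 was 0.0197 without Yy1cKO replicate 2, 0.0425 with limma-voom and 0.000946 with no filter. Col1a1 held 0 counts in all Yy1cKO libraries, against 5.61, 5.53 and 4.81 CPM in Yy1flox, so that it was at least 58.1-fold lower, and it lay just outside the threshold (adjusted p = 0.0504 by edgeR). Of 19 further matrix genes 14 were tested. Sparc, an osteonectin gene that microglia also make, rose and none fell.

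Other markers moved in the Yy1 libraries too. The endothelial sum was 0.0429, 0.0381 and 0.0411 of the microglia marker sum in Yy1cKO and 0.0794, 0.0802 and 0.105 of it in Yy1flox. Monocyte markers summed to 616, 709 and 740 CPM in Yy1cKO and 877, 1053 and 1272 CPM in Yy1flox, and 2 of the 7 tested fell. Genes detected ran from 12222 to 13041 in Yy1cKO and from 13865 to 14554 in Yy1flox. The share of vascular RNA in the sorted material, and its part in the lower members, was not tested.

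Compared per length of the annotated exons, the leading members differed between conditions. In sham and on day 28 Eng had the highest CPM per kilobase of the 40 genes. Acta2, Tagln and Myh11 led on day 1, Epas1 led on days 6 and 14, and Ctla2a led in both EGFP states on day 6. Ly6a led in all 3 Yy1flox libraries and in EGFP+ cells on day 14, and Eng led in all 3 Yy1cKO libraries and in EGFP- cells on day 14. Itm2a, a small membrane protein gene, was second in all 3 Yy1cKO libraries.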

How the data were processed

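RNA-seq libraries of sorted mouse microglia were analysed from 3 gene tables. The time course, day 6 EGFP and day 14 EGFP tables held whole read counts deposited by the authors. The Yy1 table held expected counts deposited by the authors, of which 3.55% to 4.75% per library were not whole, and these were rounded. STAR, featureCounts, edgeR and mm10 (GRCm38) are named in the submitters' processing notes, without roles or versions. Each table listed 24421 genes, 27 with date-like names. Of counts from 1 to 20, 68.7% to 90.9% were even in the tables of whole counts, against 44.2% to 48.2% in the Yy1 table.

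CPM used TMM factors of edgeR 4.0.16 (R 4.3.3). Comparisons of 1 library with another used log2 ratios of CPM + 1 without a test, the size rule, and exact 95% counting intervals (Clopper-Pearson, counting error only). Yy1cKO and Yy1flox were compared by edgeR's quasi-likelihood test after filterByExpr with Benjamini-Hochberg adjustment over all genes tested. The procedure was run on simulated counts with the same dispersion (extra spread between replicates) for every gene. Real libraries need not have this, so that run does not show how the test behaves on these data. The floor for 0 counts was 3 counts. Alternatives used limma 3.58.1 and DESeq2 1.42.0. Members and lists were chosen with earlier results of these data known. Genes were named by a rule: the defining members, members called in Yy1cKO, the 4 highest and 4 lowest ratios among members of at least 5 CPM, and up to 3 genes of a context list. Genes named beyond it were chosen after their values were seen.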

Additional observations from a re-analysis of the deposited data

Results flagged for a closer look

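Both Ly6a and Lrg1 lay on opposite sides of 0 between the reporter states on the 2 days. The log2 ratio of EGFP+ over EGFP- for Ly6a was -1 on day 6 and 3.88 on day 14. For Lrg1 it was -1.54 on day 6 and 4.63 on day 14, where the EGFP- library held 0 counts. The endothelial class turned the same way, with a median log2 ratio of -0.32 on day 6 and 4.22 on day 14. For its 16 more restricted members the medians were -0.23 and 3.30. Leukocyte markers, whose cells also make Ly6a and Lrg1, turned likewise. Their median log2 ratio was -6.4 on day 6 and 6.16 on day 14 for 9 neutrophil markers, and -3.18 and 1.73 for 8 monocyte markers. The part of leukocytes was not tested. Each state and day was 1 library, the days were in separate tables from different sequencers, and the difference between the days was not tested.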

How the results depend on the processing

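Over the 13 alternatives to the Yy1 test, Myh11 stayed past the threshold in all of them. Eng, the member called higher, was lost with scaling by total counts (0 members), and leaving out 1 library at a time gave 0 to 1. The 5 members called lower became 10 with no filter and 10 with DESeq2, and 2 to 6 with 1 library left out. Over all genes the calls were 192 higher and 130 lower, against 309 and 266 with no filter, 383 and 370 with DESeq2, 289 and 192 with limma-voom, and 127 and 193 with scaling by total counts. They were 58 and 39, 98 and 67, and 137 and 78 without Yy1flox replicates 1, 2 and 3. Uncalled genes changed sign with 1 library left out, over ranges of -0.28 to 0.02 for Pecam1, -0.57 to 0.02 for Cdh5, -0.34 to 0.20 for Tek (0.03 without Yy1flox replicate 2) and -0.01 to 0.30 for Itm2a. Col1a1 passed with DESeq2 (adjusted p = 0.000129), with no filter (0.0203) and with scaling by total counts (0.0453), Tagln with DESeq2 (0.00208), and Vwf with no filter (0.0117). Same-numbered libraries did not deviate together (r = -0.01, -0.04 and -0.03), so the numbers give no pairing. With the replicate block 1 member was called higher and 7 lower, with 219 and 194 over all genes, and Col4a1 passed (adjusted p = 0.0330). With a minimum of 50 CPM the size rule took 6 members above sham on day 1, 2 below sham on day 28, 1 above and 0 below on day 6 between EGFP states, and 12 above on day 14. With a minimum of 5 CPM it took 21 below sham on day 28 and 8 below on day 6 between EGFP states. Scaling by total counts and a pseudocount of 5 CPM each left 1 member above on day 6 between EGFP states. Asking for 10 counts in both libraries, chosen after seeing the data, left 6 below sham on day 28, 13 below day 6 on day 28, and 6 above on day 14 between EGFP states. Shares of all genes past the rule were not counted at these changed settings, so these member counts stand without a background. Lower depth and fewer genes detected on days 14 and 28 limit what a count of 0 shows. Beyond the fewer genes these minimums admit, the cause was not tested.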
